A study of Homo sapiens with 20 samples.

Results

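The genes described here are 10 transcripts that report the output of the ERK kinase pathway: the phosphatase genes DUSP1, DUSP4, DUSP5 and DUSP6, the immediate early gene EGR1, the inhibitor genes SPRY2 and SPRY4, and the ETS transcription factor genes ETV1, ETV4 and ETV5. They were chosen by symbol, all 10 were found among the 26038 genes of the tables, and all 10 passed the filter on low counts in every comparison. The study measured polyA RNA in 20 libraries, 5 for each of 4 groups, and the labels name the cells as MHCC-97H, an established line from human liver cancer. R-47 cells were labelled wild type and held in a 47 °C water bath for 15 min. R-37 cells were labelled wild type and held in a bath at 37 °C for the same time. NFS1 cells were labelled as carrying an shRNA knockdown of NFS1, a mitochondrial cysteine desulfurase, and were heated at 47 °C, as were the NC cells, labelled wild type. All cells then spent 24 h in an incubator, so each library shows the cells a day after the bath. The R-47 and R-37 groups are called the first experiment here, and the NFS1 and NC groups the second. This naming follows the group titles and the comparisons made, and is not a batch given for the libraries. Separate cultures are not stated for the 5 libraries of a group, so the p-values reflect only how far these libraries spread, and that spread may be technical.

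Growth factors outside the cell bind receptor tyrosine kinases such as EGFR, which recruit the adaptor GRB2 and the exchange factor SOS to load RAS with GTP. RAS then starts the RAF, MEK and ERK kinase cascade, and active ERK phosphorylates transcription factors that switch on a short list of genes. Several of those genes feed back: DUSP proteins remove phosphate from ERK and related kinases, and SPRY proteins restrain signalling between the receptor and RAF. ETV1, ETV4 and ETV5 are transcription factors of the PEA3 group, and their transcripts are used with DUSP6 and SPRY4 as readouts of pathway activity in tumour cells. In liver cancer the pathway is commonly active and is a target of kinase inhibitors. No phosphorylated protein was measured here, so the values below are RNA levels and not ERK activity.

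The promoters of EGR1 and DUSP1 are shown because these are the immediate early members, induced within minutes of a stimulus, and because they were the members of the promoter table that held a CArG box or a cyclic AMP response element. The sequences are from RefSeq (GRCh38.p14), run 5′ to 3′ on the gene's own strand and end at the base before the transcript start. Capitals mark the CArG boxes, the sequence that serum response factor binds, in EGR1 (chr5:138465229-138465478, plus strand) and the response element TGACGTCA in DUSP1 (chr5:172771196-172771445, minus strand).
EGR1: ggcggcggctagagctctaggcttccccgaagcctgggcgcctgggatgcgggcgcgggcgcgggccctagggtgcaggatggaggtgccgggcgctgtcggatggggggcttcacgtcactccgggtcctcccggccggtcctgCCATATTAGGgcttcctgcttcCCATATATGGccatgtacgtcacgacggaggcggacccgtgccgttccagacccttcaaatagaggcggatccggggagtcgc
DUSP1: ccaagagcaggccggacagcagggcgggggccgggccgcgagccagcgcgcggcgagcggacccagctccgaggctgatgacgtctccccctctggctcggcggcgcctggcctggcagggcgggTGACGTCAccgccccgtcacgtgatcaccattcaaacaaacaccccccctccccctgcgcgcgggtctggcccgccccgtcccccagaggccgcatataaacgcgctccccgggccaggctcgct
The 2 CArG boxes of EGR1 lie 105 to 96 and 83 to 74 bases before the start, and the element of DUSP1 lies 125 to 118 bases before it.

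The promoter table held 6 of the 10 members (DUSP1, DUSP6, EGR1, ETV1, SPRY2 and SPRY4) with 13 promoters among them. Both strands of the 250 bases before each start were searched. A CArG box was found in 1.16% of the 35116 promoters in the table and in 1 of the 13, and TGACGTCA was found in 1.65% of all and in 1 of the 13. The AP-1 motif TGANTCA (6.57% of all promoters), the ETS core ACCGGAAG (1.78%) and the heat shock element GAANNTTC (5.78%) had no match in the 13. The SP1 motif GGGCGG, held by 42.6% of all promoters, was in 7 of the 13, from DUSP1, ETV1, SPRY2 and SPRY4. The DUSP1 element is flanked by an SP1 match on each side, with no shared base. A match describes letters in this window and does not show that a factor bound there.

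Levels between genes were compared per length, as the FPKM deposited by the authors, averaged over the 20 libraries. DUSP5 had the highest mean FPKM, 35.3, followed by DUSP6 at 28.4, ETV4 at 22.1, DUSP4 at 20.6 and ETV5 at 20.5. EGR1 averaged 13.9 FPKM, DUSP1 11.9, SPRY2 6.66 and SPRY4 4.39, while ETV1 was the lowest at 1.41. Levels are given from here on as CPM, the count scaled to a fixed library total, with TMM scaling over all 20 libraries, and fold changes are from edgeR fits of the 2 groups compared.

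**Figure D1:**
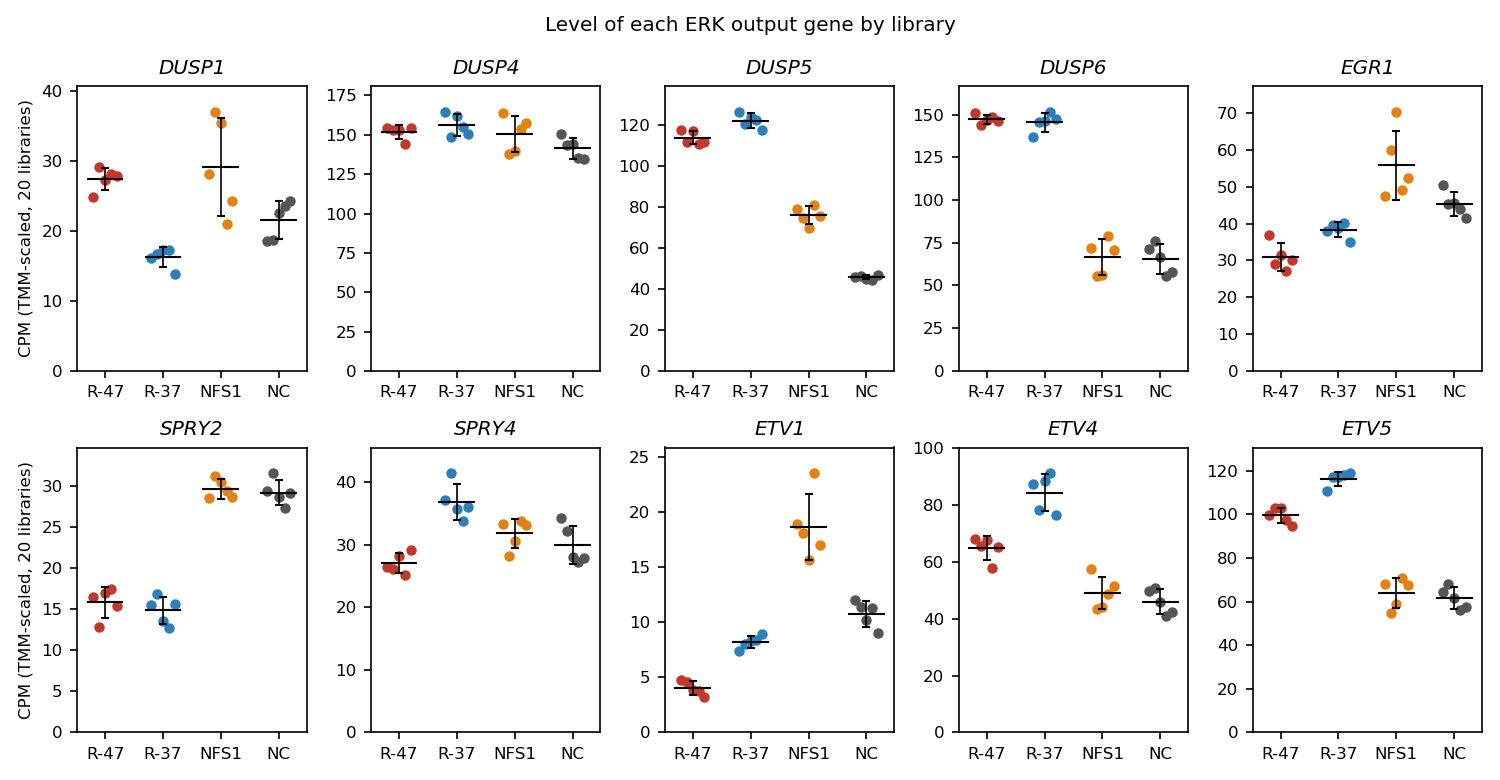
CPM of each gene in every library (points), with the group mean and SD (bars, n = 5), for R-47, R-37, NFS1 and NC; each panel has its own axis starting at 0. DUSP1 lies higher and ETV1, SPRY4, ETV4 and ETV5 lie lower in R-47, with no overlap with R-37, and DUSP5 and ETV1 lie higher in NFS1 than in NC with no overlap.

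Depth was 32219946 to 39689939 counts per library. Replicate 4 of NFS1 stood apart from the other 4 NFS1 libraries, with a chi-square per degree of freedom over genes of 57.3 to 72.5 against each, beside 3.53 to 17.5 among the other 4. The R-37 libraries were uneven too, with pairs from 4.69 to 54.6, the highest between replicates 1 and 5. Pairs ran from 3.65 to 21.6 in NC and from 5.09 to 14.2 in R-47. The check of the knockdown did not pass the test: NFS1 itself had 70.7, 65.2, 64.2, 64.0 and 68.3 CPM in the 5 NFS1 libraries, against 71.5, 72.7, 71.4, 71.9 and 76.0 CPM in the NC libraries (log2 fold change -0.11, SE 0.05, adjusted p = 0.11 by edgeR). Every NFS1 library was below every NC library, by a small margin, so the directions below refer to libraries labelled NFS1 knockdown. Keratin genes KRT8 and KRT18 were high in all groups, whereas the liver genes TTR and GPC3 were at or near 0 in every library and ALB reached at most 16.1 CPM. Of 4 epithelial genes listed, these 2 with EPCAM and CDH1, 3 averaged at least 1 CPM in every group. EPCAM was not tested between NFS1 and NC. CDH1 was lower in NC than in R-47 (log2 fold change -2.21, adjusted p = 6.1e-15, edgeR). KRT8 (-0.28, adjusted p = 0.00086) and KRT18 (-0.26, adjusted p = 0.010) were lower in NFS1 than in NC, by edgeR. The 4 genes summed to 3306 to 3998 CPM in NFS1 and 4262 to 4681 CPM in NC. KRT19 averaged 423 CPM in R-47 and 425 CPM in R-37, but 0.65 CPM in NFS1 and 0.79 CPM in NC, so the libraries of the 2 experiments differ in a cytokeratin that marks bile duct cells. The summed CPM of 3 bile duct genes was 9.12 to 12.9 in NFS1, 11.1 to 14.3 in NC, 459 to 506 in R-47 and 388 to 531 in R-37. The 8 liver genes summed to 68.0 to 74.7 CPM in R-47 and 73.6 to 82.6 CPM in R-37, and to 72.7 to 83.9 CPM in NFS1 and 106 to 117 CPM in NC. Among them ALB (log2 fold change -1.46, adjusted p = 2.5e-07), SERPINA1 (-1.29, adjusted p = 1.88e-05) and APOB (-0.92, adjusted p = 0.00012) were lower after heating and HNF4A (0.28, adjusted p = 0.0033) was higher, by edgeR. The 5 fibroblast genes summed to 17.1 to 20.5 CPM in R-47 and 17.8 to 26.8 CPM in R-37, and to 31.0 to 54.0 CPM in NFS1 and 20.7 to 25.7 CPM in NC. Nearly all of that sum was LUM, at 34.4 CPM in NFS1 and 20.2 CPM in NC (log2 fold change 0.78, adjusted p = 0.0014), while COL1A1 (0.03, adjusted p = 0.93) and COL3A1 (-0.43, adjusted p = 0.28) did not pass. The 5 leukocyte genes summed to at most 1.82 CPM in any library, and 4 endothelial genes to 51.6 to 58.0 CPM in NFS1 and 56.1 to 69.8 CPM in NC. The part of these marker genes in the results below was not tested. Of 14344 genes tested between R-47 and R-37, edgeR called 25.1%, of which 11.9% of all tested were higher and 13.2% lower. Scaling by library size alone turned that split to 2977 higher and 1013 lower, against 1714 higher and 1890 lower with TMM. Of 15086 genes tested between NFS1 and NC, 28.1% were called, 15.7% higher and 12.5% lower, which is 2364 and 1881 genes. Offsets for length and GC content turned this to 2490 higher and 3023 lower. Of 15080 genes tested between NC and R-47, 79.7% were called, 40.1% higher and 39.6% lower.

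The first comparison asks what the 47 °C bath left behind a day later. Of the 10 genes, 1 was higher after heating and 5 were lower (adjusted p under 0.05, edgeR), against 11.9% and 13.2% of all genes tested. The median log2 fold change of the 10 was -0.16, beside -0.0076 over all genes tested. The gene that rose was DUSP1, and those that fell were ETV1, SPRY4, ETV4, EGR1 and ETV5. In bulk RNA, fewer cells with a transcript and less of it in each cell cannot be told apart. The heat shock gene CRYAB was 4.22 higher in log2 fold change (SE 0.13, adjusted p = 1.46e-11, edgeR), while HSP90AA1 was -1.08 (SE 0.06, adjusted p = 1.17e-08, edgeR), and 5 of 8 heat shock genes listed were lower and 1 higher.

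DUSP1 encodes a nuclear phosphatase that acts on the stress kinases JNK and p38 as well as ERK; it lies on chromosome 5 at 172768096 to 172771195 (RefSeq GRCh38.p14, the build of all gene positions here). Its level was 24.8, 29.1, 27.3, 28.2 and 27.9 CPM in R-47, against 16.1, 16.7, 17.2, 17.2 and 13.8 CPM in R-37. Each R-47 library was above each R-37 library, and the groups were set apart by more than their own spread. The log2 fold change was 0.76 (SE 0.07, adjusted p = 3.04e-06, edgeR), a 1.70-fold rise.

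The other 3 phosphatases did not pass the test. DUSP6, a cytoplasmic phosphatase selective for ERK (chromosome 12 at 89347235 to 89352501), had 151, 144, 147, 149 and 146 CPM in R-47, against 137, 146, 146, 152 and 148 CPM in R-37. Its groups overlapped almost fully, with a log2 fold change of 0.02 (95% interval -0.07 to 0.11). DUSP5, a nuclear phosphatase also selective for ERK (chromosome 10 at 110497907 to 110511533), had 118, 112, 117, 111 and 112 CPM in R-47, against 126, 120.4, 124, 123 and 118 CPM in R-37. Replicate 1 of R-47 was just above the lowest R-37 library, and the other 4 R-47 libraries were below all 5. Its log2 fold change was -0.10 (95% interval -0.19 to -0.0048, adjusted p = 0.11, edgeR), and with offsets for length and GC content it was called lower at -0.17 (adjusted p = 0.00083). DUSP4, another nuclear phosphatase of the family (chromosome 8 at 29333064 to 29350684), ranged from 144 to 154 CPM in R-47 and from 149 to 165 CPM in R-37. These ranges overlapped, and its log2 fold change was -0.04 (95% interval -0.13 to 0.06).

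EGR1, a zinc finger transcription factor induced through serum response factor (chromosome 5 at 138465479 to 138469303), had 36.9, 28.9, 31.6, 27.0 and 30.2 CPM in R-47, against 38.1, 39.7, 38.9, 40.1 and 35.1 CPM in R-37. Replicate 1 of R-47 lay above the lowest R-37 library, and the other 4 R-47 libraries lay below all 5. The log2 fold change was -0.31 (SE 0.08, adjusted p = 0.0091, edgeR). It was the only call of the 6 that any alternative removed: on log2(FPKM + 1) without a filter its adjusted p was 0.066.

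SPRY4, a Sprouty inhibitor of RAS and RAF signalling (chromosome 5 at 142310430 to 142325021), had 26.5, 26.2, 28.2, 25.1 and 29.1 CPM in R-47, against 37.2, 41.4, 35.7, 33.9 and 36.0 CPM in R-37. The groups did not overlap, and the log2 fold change was -0.44 (SE 0.07, adjusted p = 0.00022, edgeR). SPRY2, its paralogue (chromosome 13 at 80335976 to 80341126), had 16.5, 12.8, 17.0, 17.5 and 15.3 CPM in R-47, against 15.6, 16.8, 13.5, 12.7 and 15.6 CPM in R-37. Its groups overlapped fully, with a log2 fold change of 0.10 (95% interval -0.11 to 0.30).

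All 3 ETV genes were lower after heating. ETV1 (chromosome 7 at 13891229 to 13991425) had 4.79, 4.55, 3.82, 3.74 and 3.22 CPM in R-47, against 7.37, 8.05, 8.28, 8.37 and 8.91 CPM in R-37. The groups were far apart. Its log2 fold change was -1.02 (SE 0.11, edgeR adjusted p = 1.47e-05), the largest of the 10 in size. ETV4 (chromosome 17 at 43527846 to 43546340) had 68.0, 65.5, 67.6, 57.8 and 65.3 CPM in R-47, against 87.4, 78.3, 88.5, 91.1 and 76.4 CPM in R-37. Its highest R-47 library was below its lowest R-37 library, and the log2 fold change was -0.37 (SE 0.06, adjusted p = 0.00054, edgeR). ETV5 (chromosome 3 at 186046314 to 186109089) had 99.8, 103, 103, 97.5 and 94.7 CPM in R-47, against 111, 117, 117, 118 and 119 CPM in R-37. These groups did not overlap either (log2 fold change -0.22, SE 0.04, edgeR adjusted p = 0.0023). Sizes depended on the scale, with each call kept: with library size alone ETV5 was at -0.14, and on log2(FPKM + 1), which understates changes of low genes, ETV1 was at -0.39 and SPRY4 at -0.29. Exons of ETV4 overlap DHX8 on the other strand, exons of ETV5 overlap DGKG on the same strand, and exons of DUSP6 overlap an antisense gene. Whether the authors' counting used strand is not given in the sources used here, so the values of ETV4 and DUSP6 carry that uncertainty. Strand would not separate ETV5 from DGKG, and how reads in their shared exons were counted is not given either.

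**Figure D2:**
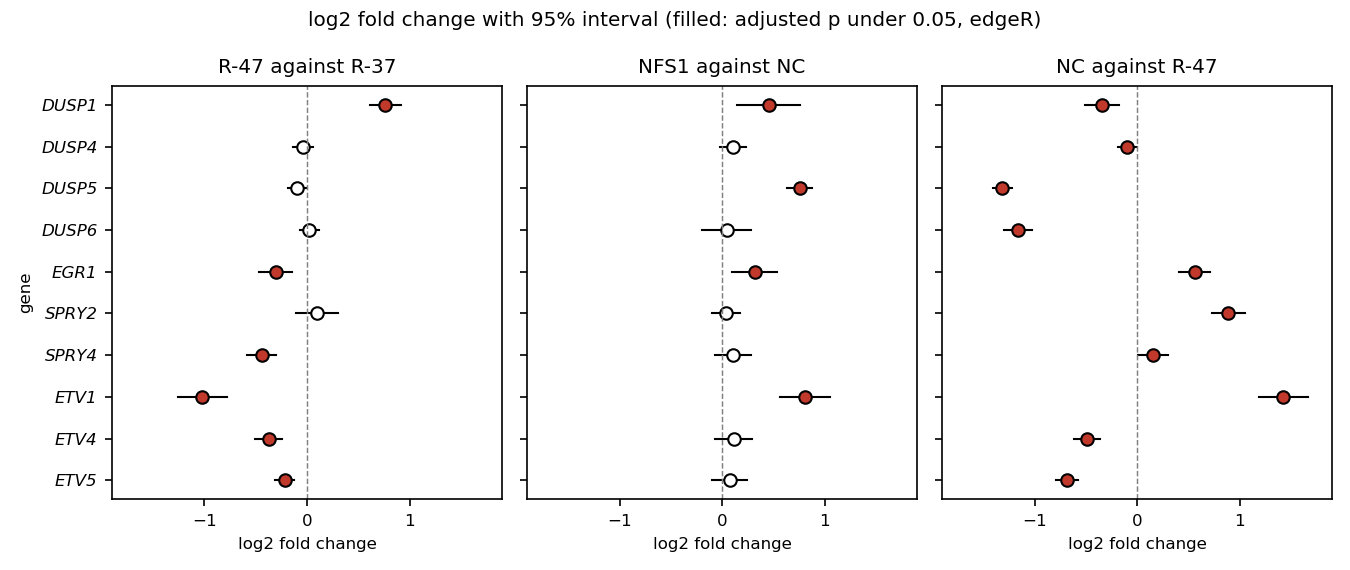
log2 fold change of each gene with its 95% interval in the 3 comparisons (heating on the left, knockdown in the middle, the experiments on the right), filled where the adjusted p was under 0.05. DUSP1 stands to the right and 5 genes to the left after heating, DUSP5 and ETV1 have the largest changes between NFS1 and NC, and the widest spread is between NC and R-47.

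The rest of the pathway was described by lists of its parts, beside the 25.1% of all genes that edgeR called with heating. Of 9 ligand genes tested 1 was higher (NRG1, log2 fold change 0.37, adjusted p = 0.00054) and 1 lower (BTC, -0.26, adjusted p = 0.022). Of 7 receptor genes 1 was higher (ERBB2, 0.62, adjusted p = 0.00079) and 3 were lower. The lower ones included FGFR4 at -0.71 (adjusted p = 2.82e-05) and ERBB3 at -0.46 (adjusted p = 1.47e-05). EGFR had 216, 214, 218, 221 and 215 CPM in R-47, against 179, 228, 192, 193 and 213 CPM in R-37, overlapping groups with a log2 fold change of 0.11 (95% interval -0.01 to 0.23). Of 13 adaptor, RAS and RAS regulator genes 3 were lower.

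Within the kinase cascade 1 of 13 genes was higher and 2 lower. MAPK3, which encodes ERK1, was 0.23 higher (SE 0.06, adjusted p = 0.0071) by edgeR. BRAF (0.04) and MAP2K1 (-0.02) had log2 fold changes near 0 and did not pass. Of the other phosphatase genes, DUSP10, which acts on p38 and JNK, had 11.0, 12.6, 12.1, 12.4 and 13.4 CPM in R-47, against 8.71, 7.97, 8.99, 8.58 and 9.97 CPM in R-37. Its groups did not overlap, and it rose with DUSP2 (log2 fold changes 0.48 and 0.46) while DUSP16 fell (-0.20) and DUSP7 did not pass (0.04).

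Of 9 other genes listed as inhibitors of the pathway, 2 were lower, SPRY1 and ERRFI1 (log2 fold change -0.18, adjusted p = 0.0077, edgeR). SPRY1, another Sprouty gene, had 34.3, 30.0, 34.6, 33.4 and 33.1 CPM in R-47, against 43.0, 45.4, 44.0, 43.9 and 45.8 CPM in R-37 (log2 fold change -0.42, SE 0.06, adjusted p = 7.48e-05, edgeR). SPRED1 (-0.12) and SPRED2 (-0.06) did not pass. Of 11 other output genes, 3 were higher and 3 lower: FOSL1, an AP-1 subunit stabilised by ERK, was 0.55 higher (adjusted p = 3.62e-06), PHLDA1 was at -0.25 (adjusted p = 0.0012) and CCND1, cyclin D1, did not pass at -0.10 (adjusted p = 0.085). Of 14 other immediate early genes 4 were higher, with a median of 0.12, including CCN1 (0.56), ATF3 (0.39) and ZFP36 (0.24). Of 11 other ETS and serum response factor genes 2 were lower, GABPA and ELK4.

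**Figure D3:**
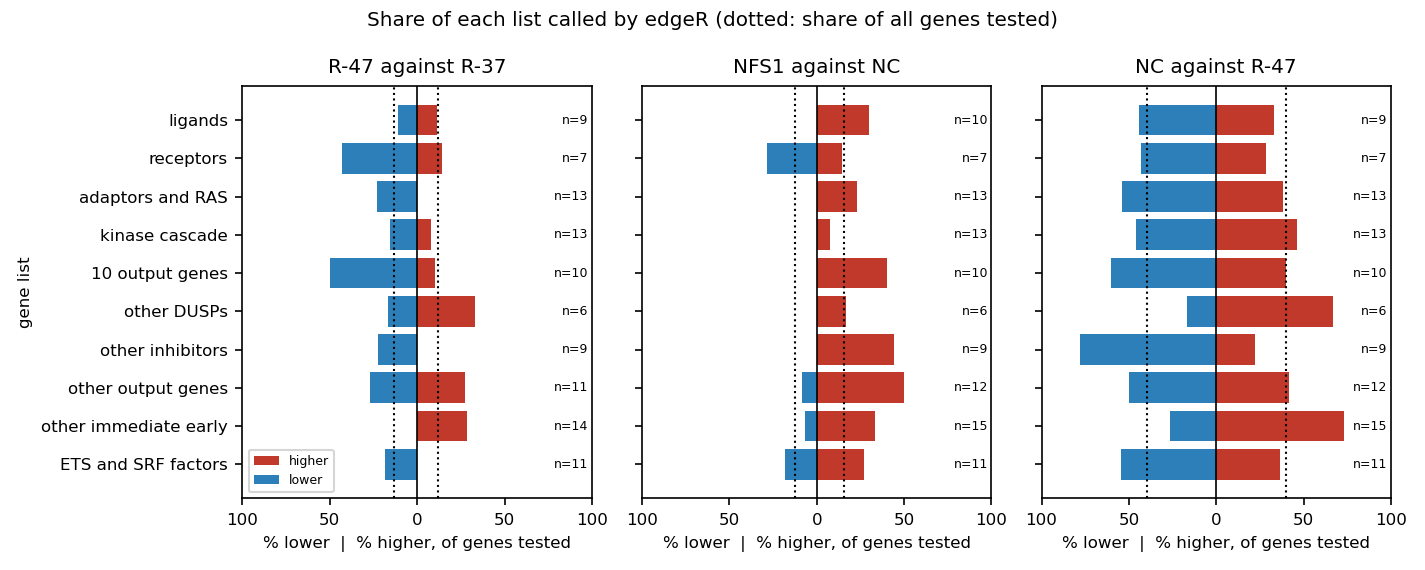
Share of each gene list called higher (right) or lower (left) by edgeR, as a percent of its genes tested (n beside each bar), in the 3 comparisons; dotted lines mark the share over all genes tested. After heating 5 of the 10 output genes are on the left side and 1 on the right, and between NFS1 and NC 4 of them are on the right.

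The next comparison sets heated NFS1 cells against heated NC cells. Of the 10 genes 4 were higher and 0 lower, beside 15.7% and 12.5% of all genes tested, and the median log2 fold change was 0.11 beside 0.017 over all genes. The genes that rose were DUSP5, ETV1, DUSP1 and EGR1. All 10 log2 fold changes were above 0 in this edgeR fit, so 0 were lower at an unadjusted p under 0.05 too. DUSP6 turned negative in 3 of the 24 alternatives and SPRY2 in 1, but 0 were called lower under each, DESeq2 and limma among them. With 12.5% of all genes lower, 0 of 10 is near that share. How many of all genes had a change above 0 was not computed, so these counts do not show a trait of the members.

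DUSP5 had 79.1, 74.6, 69.9, 81.1 and 75.5 CPM in NFS1 libraries, against 45.6, 46.5, 44.6, 44.6 and 46.7 CPM in NC libraries. The groups were far apart, and the NC libraries lay close together. The log2 fold change was 0.75 (SE 0.05, adjusted p = 6.09e-07, edgeR), or 1.69-fold. ETV1 had 18.9, 18.1, 15.6, 23.5 and 17.0 CPM in NFS1, against 12.0, 11.4, 10.2, 11.3 and 9.04 CPM in NC. These did not overlap, and its log2 fold change was 0.81 (SE 0.11, adjusted p = 0.00014, edgeR). Both calls held under every one of the 24 alternatives tried. Without NFS1 replicate 4 and NC replicate 1 the log2 fold changes were 0.73 for DUSP5 and 0.75 for ETV1.

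DUSP1 had 28.1, 37.0, 35.5, 21.0 and 24.3 CPM in NFS1, against 18.5, 18.8, 22.5, 23.6 and 24.3 CPM in NC. The groups overlapped, with replicates 2 and 3 of NFS1 the highest. Its log2 fold change was 0.46 (SE 0.14, adjusted p = 0.028, edgeR). EGR1 had 47.6, 59.9, 70.4, 49.0 and 52.4 CPM in NFS1, against 50.5, 45.5, 45.6, 44.0 and 41.6 CPM in NC, again overlapping, with the same 2 libraries highest (log2 fold change 0.32, SE 0.10, edgeR adjusted p = 0.031). Without NFS1 replicates 2 and 3 the changes were 0.19 (adjusted p = 0.30) for DUSP1 and 0.14 (adjusted p = 0.25) for EGR1. Leaving out either of those 2 libraries alone, or NC replicate 2 or 3, also removed both calls. The DUSP1 call was lost without NC replicate 1 as well, and the EGR1 call without NC replicate 4 or 5. Adjusted p then lay between 0.055 and 0.092. The DUSP1 call was also lost on all 3 FPKM scales, with an adjusted p of 0.051 on both that had a filter on low values. Without NFS1 replicate 4 and NC replicate 1 both calls were kept, at 0.50 for DUSP1 (adjusted p = 0.0015) and 0.40 for EGR1 (adjusted p = 0.0014).

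The other 6 genes did not pass. SPRY2 had 28.5, 31.2, 30.4, 29.4 and 28.6 CPM in NFS1, against 29.4, 31.5, 28.6, 27.3 and 29.1 CPM in NC, nearly identical ranges (log2 fold change 0.04, 95% interval -0.10 to 0.18). SPRY4 ranged from 28.3 to 33.9 CPM in NFS1 and from 27.3 to 34.3 CPM in NC (log2 fold change 0.10, 95% interval -0.07 to 0.28). DUSP6 had 72.2, 55.3, 56.0, 79.2 and 70.5 CPM in NFS1, against 71.3, 76.0, 66.8, 55.3 and 57.7 CPM in NC. Its libraries spread widely within both groups (log2 fold change 0.04, 95% interval -0.20 to 0.28). DUSP4 ranged from 138 to 164 CPM in NFS1 and from 134 to 151 CPM in NC (log2 fold change 0.11, 95% interval -0.02 to 0.23). ETV4 ranged from 43.5 to 57.4 CPM in NFS1 and from 41.0 to 50.7 CPM in NC (0.11, 95% interval -0.07 to 0.30). ETV5 ranged from 54.8 to 70.9 CPM in NFS1 and from 56.2 to 68.2 CPM in NC (0.07, 95% interval -0.10 to 0.24).

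The rest of the pathway was counted in the same way, here and in the next paragraph, beside 15.7% higher and 12.5% lower of all genes tested. A count near those shares, such as 1 of 13, is not a result about its list. Of 10 ligand genes 3 were higher: TGFA, a ligand of EGFR, had 10.7, 10.1, 8.29, 11.9 and 12.3 CPM in NFS1, against 2.92, 3.36, 3.18, 2.73 and 3.76 CPM in NC, far apart (log2 fold change 1.76, SE 0.13, adjusted p = 5.03e-07, edgeR). NRG1, a ligand of ERBB3, was 0.72 higher (adjusted p = 1.19e-05) and HBEGF 0.38 higher (adjusted p = 0.046). Of 7 receptor genes 1 was higher (IGF1R, 0.32) and 2 lower (ERBB2, -0.40, and FGFR4, -0.36), while EGFR was at 0.14 (adjusted p = 0.34). Of 13 adaptor, RAS and RAS regulator genes 3 were higher. These were RASAL2 at 0.62, which encodes a GTPase-activating protein that turns RAS off, FRS2 at 0.31 and GRB2 at 0.15. In the kinase cascade 1 of 13 was higher (RPS6KA3, 0.33), with BRAF, MAP2K1 and MAPK3 at 0.21, -0.02 and -0.14, none called.

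Of the other inhibitors 4 of 9 were higher, including SPRED3 (0.80, adjusted p = 0.00017), SPRY1 (0.31, adjusted p = 0.0087) and LRIG1 (0.28, adjusted p = 0.0061). SPRED1 (0.06) and SPRED2 (0.21, adjusted p = 0.061) did not pass. DUSP10 was 0.73 higher (adjusted p = 0.00018), alone among 6 other phosphatases, and DUSP7 did not pass at 0.11. Among 12 other output genes 6 were higher and 1 lower: IER3 (0.43, adjusted p = 0.00069), MYC (0.32) and TRIB1 (0.27) rose, FOSL1 fell to 244 CPM in NFS1, against 294 CPM in NC (log2 fold change -0.25, adjusted p = 0.023), and neither PHLDA1 (0.21, adjusted p = 0.062) nor CCND1 (0.01) passed. Of 15 other immediate early genes 5 were higher and 1 lower, with EGR2 at 0.82, BTG2 at 0.58 and FOSB at 1.34. Of 11 other ETS and serum response factor genes 3 were higher and 2 lower, with SRF at -0.29 (adjusted p = 0.00069). Of 8 heat shock genes 4 were higher: HSPA6 by 2.82 in log2 fold change (SE 0.65, adjusted p = 0.0054), HSPA1B by 2.26, HSPA1A by 1.901 and DNAJB1 by 0.67. The other 4 did not pass, HSP90AA1 (-0.02), HSPB1 (0.02), CRYAB (0.22) and HSPH1 (0.33, adjusted p = 0.052).

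The NFS1 and NC libraries differed among themselves in heat shock RNA, and several output genes deviated with it. HSPA6, a heat-inducible chaperone, had 56.6, 251, 246, 22.3 and 83.1 CPM in NFS1, against 5.41, 6.10, 14.6, 30.0 and 39.0 CPM in NC, and at most 1.49 CPM in the R-47 and R-37 libraries. Reads of HSPA6, and of HSPA1A used below, may be shared with similar genes, which was not tested. The deviation of each library from its group mean, in log2 CPM, was set against that of HSPA6 over these 10 libraries. These relations were chosen after the values were seen: 30 were computed, with an exact two-sided permutation test within groups (14400 arrangements), and adjusted p-values are over the 30. They were computed for the 10 output genes alone. The share of all genes that would pass is not known, so the relations do not show a trait of these genes. DUSP1 deviated with HSPA6 (Pearson r = 0.92, Spearman rho = 0.89, exact adjusted p = 0.0071 and 0.0083), and DUSP6 against it (r = -0.96, rho = -0.92, exact adjusted p = 0.0071 and 0.0083). ETV5 (r = -0.92, rho = -0.84, exact adjusted p = 0.0071 and 0.020), SPRY4 (r = -0.87, rho = -0.88, 0.0083 for both) and ETV1 (r = -0.79, rho = -0.82, 0.029 and 0.027) also went against it. DUSP4 did so too (r = -0.80, rho = -0.77, exact adjusted p = 0.033 and 0.040), and ETV4 passed by r alone (r = -0.77, rho = -0.68, 0.036 and 0.084). DUSP5 (r = -0.67, rho = -0.52, exact adjusted p = 0.080 and 0.23), EGR1 (0.37 and 0.22, 0.51 and 0.70) and SPRY2 (-0.03 and 0.07, 0.96 and 0.93) did not pass. Without the 2 libraries farthest out on HSPA6, NFS1 replicate 4 and NC replicate 5, r was 0.90 for DUSP1, -0.96 for DUSP6, -0.92 for ETV5 and ETV4, -0.90 for SPRY4, -0.88 for DUSP4 and -0.61 for ETV1. Whether heat shock RNA has a part in these differences was not tested.

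The same relations with HSPA1A, another heat-inducible chaperone, were also negative for DUSP6 (r = -0.96, rho = -0.98, exact adjusted p = 0.0071 and 0.0083) and positive for DUSP1 (r = 0.92, rho = 0.93, the same 2 values) in NFS1 and NC. HSPA1A itself ran from 99.3 to 872 CPM in NFS1 and from 42.5 to 244 CPM in NC, and over a narrower span in the first experiment, from 67.7 to 94.3 CPM in R-47 and from 140.4 to 223 CPM in R-37. There DUSP6 (r = -0.20, rho = -0.09) and DUSP1 (r = 0.23, rho = 0.08) did not follow it, with exact permutation adjusted p of 0.83 and 0.79 for r and 0.93 for both rho values. DUSP5 (r = 0.89, rho = 0.88, exact adjusted p = 0.0042 and 0.0052) and DUSP4 (r = 0.85, rho = 0.85, 0.033 and 0.040) deviated with HSPA1A in R-47 and R-37, and ETV4 (r = 0.86, rho = 0.78, 0.015 and 0.052) and EGR1 (r = 0.67, rho = 0.53, 0.029 and 0.18) passed by r alone. Without the 2 libraries farthest out, R-37 replicates 1 and 5, these 4 r values were 0.80, 0.79, 0.85 and 0.73. In the NFS1 group, replicates 2 and 3 were the 2 lowest libraries for 6 members and the 2 highest for 3 (DUSP1, EGR1 and SPRY2). These 2 libraries were also the closest pair of their group over all genes, at a chi-square per degree of freedom of 3.53. The share of all genes with the same order was not computed, so the counts do not show a trait of the members.

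**Figure D4:**
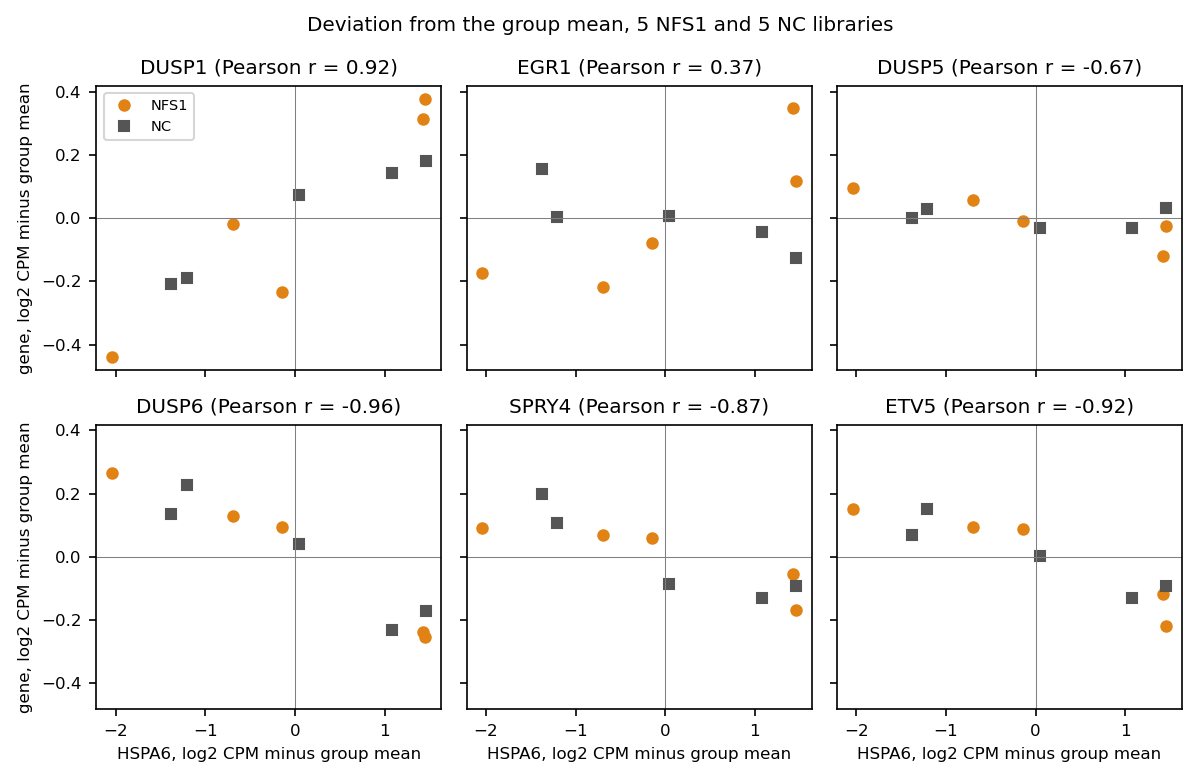
Deviation of 6 genes from their group mean (log2 CPM, y axis) against that of HSPA6 (x axis) in 5 NFS1 (circles) and 5 NC (squares) libraries. DUSP1 climbs with HSPA6 (r = 0.92), DUSP6, SPRY4 and ETV5 descend (r = -0.96, -0.87 and -0.92), and EGR1 shows no clear slope.

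NC and R-47 cells are both labelled wild type and were both heated, but are taken here as parts of different experiments, so experiment and group cannot be told apart. This comparison shares its NC libraries with the knockdown comparison and its R-47 libraries with the heat comparison. Of the 10 genes 4 were higher and 6 lower in NC, against 40.1% and 39.6% of all genes tested, and their median log2 fold change was -0.22. Scaling by library size alone shifts the median of all genes from 0.011 to 0.19 in log2 and gives 7465 higher and 4740 lower, against 6043 and 5978, and changes below are to be read relative to that shift. DUSP5 averaged 45.6 ± 1.0 CPM in NC and 114 ± 3.35 CPM in R-47 (SD, n = 5 each; log2 fold change -1.31), and DUSP6 65.4 ± 8.82 CPM in NC and 147 ± 2.57 CPM in R-47 (-1.16). ETV5 (-0.68) and ETV4 (-0.49) were also lower in NC, and ETV1 (1.43), SPRY2 (0.89) and EGR1 (0.56) were higher, each with groups that did not overlap, an edgeR adjusted p of 3.1e-07 or less and a call kept in all 22 alternatives. DUSP1 was -0.34 (adjusted p = 0.0004, edgeR) and lost its call under 4 alternatives that scale by library size. SPRY4 was 0.15 (adjusted p = 0.046) and lost its call under 8, among them without NC replicate 1 or 2 or R-47 replicate 1, 2, 3 or 4, where it was 0.10 to 0.16. DUSP4 was -0.09 (adjusted p = 0.048) and lost its call under 12, among them without any 1 of the libraries NC 2 to 5 and R-47 1, 2, 3 and 5. It reversed under 5, library size scaling among them (0.085). The count of members called higher in NC ran from 3 to 5 over the alternatives, so DUSP4 was called higher in at least 1 of them. Its direction therefore depends on the processing. With library size scaling SPRY4 was 0.33 and ETV4 -0.31, and on log2(FPKM + 1) ETV1 was 0.75. Upstream, TGFA averaged 3.19 ± 0.40 CPM in NC and 38.2 ± 3.61 CPM in R-47 (log2 fold change -3.57), and EGFR was -1.05, MET -0.75 and ERBB3 -0.97. In the kinase cascade MAPK3 was -0.75, ARAF was -1.59, and BRAF did not pass at 0.03. SPRED1 (-0.45), SPRED2 (-0.29) and PHLDA1 (-0.90) were lower, and MAP2K1 (0.10), CCND1 (0.42), DUSP7 (0.77) and FOSL1 (0.84) were higher. Of the lists, 7 of 9 other inhibitors were lower and 2 higher, and 11 of 15 other immediate early genes were higher and 4 lower.

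Across the 4 group means the widest range was that of ETV1, at 4.63-fold, with NFS1 highest, then NC, R-37 and R-47, and no neighbours overlapping. DUSP5 had a 2.68-fold range, with R-37 and R-47 overlapping at the top, then NFS1, then NC. DUSP6 spanned 2.25-fold with R-47 and R-37 overlapping above NFS1 and NC, which overlapped. SPRY2 (2.00-fold) had NFS1 and NC overlapping above R-47 and R-37. For the other 6 the range was 1.104-fold (DUSP4) to 1.89-fold (ETV5). The genes whose 4 centred group means lay nearest to those of ETV1, among 10377 of average log2 CPM of at least 2, were LIN7A, MMP2, PLA2G4A, STMN3 and PGM2L1, at root mean square distances of 0.15 to 0.27 in log2. MMP2, a matrix metalloproteinase, averaged 46.9 CPM in NFS1 and 30.2 CPM in NC, and 12.3 CPM in R-47 and 16.9 CPM in R-37. Nearest to DUSP5 were NBAS, ZFYVE27, TFPI, PRXL2A and SAPCD2, at distances of 0.022 to 0.047.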

How the data were processed

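PolyA RNA of 20 libraries was measured, with libraries made by a VAHTS Universal V6 kit per the labels' protocols. Per the submitters' processing notes, fastp, HISAT2, HTSeq and hg38 were used; no source used here gives their versions, annotation or strandedness. The authors deposited whole-number counts per gene symbol, not normalised, and FPKM values, which per the values are the count divided by a length per gene and the library's total. Samples were grouped by title. Each comparison used the deposited counts of its 2 groups only: edgeR filterByExpr (minimum count 10, total 15), TMM scaling and the quasi-likelihood test with Benjamini-Hochberg adjustment over all genes tested, called under 0.05. Levels are CPM scaled by TMM over 20 libraries. Alternatives were DESeq2, limma-voom, other scalings, filters and offsets, FPKM with limma, a replicate block and left-out libraries. Members, lists and the naming rule were chosen with earlier results of these data known: all members, NFS1, up to 3 called genes of smallest adjusted p per list, 12 pathway genes by name, of which some are not reported here, and pattern neighbours. The scripts were tested on simulated counts. R 4.3.3, edgeR 4.0.16, limma 3.58.1, DESeq2 1.42.0, Python 3.11.15, pandas 2.3.3, numpy 2.4.6, scipy 1.17.1 and matplotlib 3.10.9 were used. Counting intervals would cover sampling error only.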

Additional observations from a re-analysis of the deposited data

Results flagged for a closer look

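Each group of 5 libraries was searched for a library whose gap to its nearest neighbour exceeded 0.71 of the group's range, which chance alone flags in about 1 in 20 groups. Of 40 groups 3 were found. R-47 replicate 4 was the lowest library of its group for DUSP4, at 144 CPM (144.39), and for ETV4, at 57.8 CPM (57.801). R-37 replicate 1 was the lowest of its group for ETV5, at 111 CPM (110.65). The ETV4 and ETV5 calls between R-47 and R-37 held with these libraries left out.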

How the results depend on the processing

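Heating calls of DUSP1, SPRY4, ETV1, ETV4 and ETV5 held under every alternative that gave a value; ETV1 had none in 2 FPKM settings, since its mean FPKM was under the filter of 1. DUSP4 between R-47 and R-37 turned to 0.040 with library size alone and to 0.039, 0.041 and 0.039 on the 3 FPKM scales, and was called in none. Between NFS1 and NC, DUSP6 ranged from -0.029 to 0.099 with 1 library left out and SPRY2 was -0.0081 without NFS1 replicates 2 and 3. That setting called 2769 genes, against 4245, while leaving out NFS1 replicate 4 and NC replicate 1 called 5559. The count of members called higher was 2 without NFS1 replicates 2 and 3, on log2(FPKM + 1) without a filter and with the replicate block. It ran from 2 to 4 with 1 library left out. Replicate numbers did not pair the samples: the correlations of same-numbered deviations ran from -0.30 to 0.31 for R-47 and R-37 and from -0.50 to 0.18 for NFS1 and NC, and no library of those correlated best with its own number. With the replicate block 2928 genes were called after heating and 3068 between NFS1 and NC. Between NC and R-47, DUSP4 was 0.085 with library size alone, 0.110 with length and GC offsets and 0.081, 0.084 and 0.081 on the FPKM scales. The count of members called higher in NC ran from 3 to 5, and the highest count included DUSP4. The cause of these changes was not tested. Depth did not keep any of the 10 genes out of a test: all passed the filter on low counts in each comparison.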
